A study of Mus musculus with 9 samples.

Results

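Clca3a1 and Clca3b are neighbouring members of the mouse chloride channel accessory (Clca) family, and their mRNA was measured in Hepa1-6 cells, a hepatocarcinoma line of mouse. The genes were chosen because the authors' deposited tables list both as higher than control after P-Por-Os with ultrasound and after P-Por-Os without it. They are 2 of the 217 distinct genes that those tables hold. Both were highest after P-Por-Os alone, intermediate after P-Por-Os with ultrasound and lowest in control, with no overlap between the groups. Heatr1, Hmgn2 and Cd14, also listed as higher than control in both comparisons, took the same order with no overlap. Every library came from wild-type Hepa1-6 cells by the labels, and there were 3 libraries in each of 3 groups. In the group written P-Por-Os+US, cells were given P-Por-Os at 25.57 µg/mL and were also treated with ultrasound, and in the group written P-Por-Os they were given that dose with no ultrasound. The control group was untreated by the labels of the samples and received PBS by the description of the series. A group given ultrasound alone was not analysed here, so ultrasound by itself and ultrasound acting with P-Por-Os cannot be told apart. All cells were of 1 line, and no label ties a library to a culture of its own, so errors and p-values reflect only how far these libraries differ, and that may be technical variation.

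Clca proteins were first described as calcium-activated chloride channels, but they are now regarded as secreted or membrane-anchored proteins that modulate such channels. They carry a metalloprotease-like domain and are cleaved into a large and a small part. The best studied member, Clca1, is released with mucus by goblet cells, and its human counterpart raises the current of the channel ANO1 (TMEM16A). Clca3a1 has been described in mouse lymphatic endothelium and in secretory epithelia, and Clca3b is one of the least studied members.

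Both genes lie on the minus strand of chromosome 3 in the GRCm38 build, in a cluster that holds all 8 annotated Clca genes. Clca3a1 (ENSMUSG00000056025.12) spans chr3:144729677-144760977 and Clca3b (ENSMUSG00000037033.9) spans chr3:144822623-144849357 in GENCODE M21. Clca3a2 (ENSMUSG00000028262.13), at chr3:144796559-144819494, stands between them and was not listed in any table. The coding transcript of each of the 3 genes has 14 exons. The coding sequence of Clca3a1 was 86.7 percent identical to that of Clca3b and 97.1 percent identical to that of Clca3a2, over the aligned bases.

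**Figure D1:**
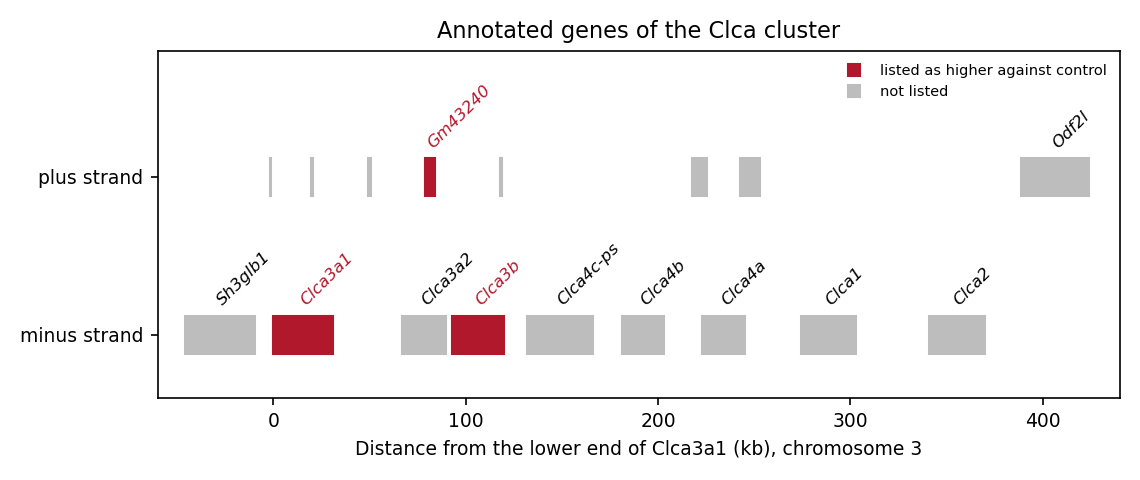
Annotated genes around Clca3a1 and Clca3b, with distance from the lower end of Clca3a1 in kb on the horizontal axis and the strand on the vertical axis. Red boxes mark Clca3a1, Clca3b and the antisense model Gm43240, which are listed as higher against control, and grey boxes mark genes that are not listed, among them Clca3a2.

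The longest stretch that the coding sequences of Clca3a1 and Clca3b share is shown because the letters alone cannot assign a fragment that falls wholly within it to one of them. It is 92 bases long and opens both coding sequences in exon 1, at chr3:144760631-144760722 in Clca3a1 and at chr3:144849194-144849285 in Clca3b (GRCm38, minus strand). The capitals mark the start codon.
Clca3a1 and Clca3b, shared coding start: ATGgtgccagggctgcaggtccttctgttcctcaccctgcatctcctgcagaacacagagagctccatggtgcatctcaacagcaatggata

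Of the 31-base words of the Clca3a1 coding transcript, 9.76 percent also occur in Clca3b and 36.8 percent in Clca3a2. With words of 150 bases, the length of 1 read, the shares were 0.0 percent for Clca3b and 2.76 percent for Clca3a2. Clca3b was more distinct: 10.2 percent of its 31-base words occur in Clca3a1, 11.6 percent in Clca3a2, and 0.0 percent of its 150-base words occur in any other gene. How the authors' counting treated reads that match several genes is not given in the sources used here, so the split of reads between Clca3a1 and Clca3a2 is uncertain.

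The sequences before the annotated starts are shown because both genes were higher in the same groups and yet differ in these windows. The 250 bases upstream of the RefSeq start (GRCm38.p6, minus strand, read 5′ to 3′) lie at chr3:144760978-144761227 for Clca3a1 and chr3:144849303-144849552 for Clca3b, and both members were found in the RefSeq promoter table. Capitals mark the stretch of Clca3b that aligns with Clca3a2, whose own stretch lies at chr3:144819495-144819563. GENCODE places the start of Clca3b 55 bases further upstream than RefSeq does. For Clca3a1 the GENCODE start of the gene is the RefSeq start, but the coding transcript compared above begins further downstream. The Clca3a1 window thus does not adjoin the start of that transcript.
Clca3a1: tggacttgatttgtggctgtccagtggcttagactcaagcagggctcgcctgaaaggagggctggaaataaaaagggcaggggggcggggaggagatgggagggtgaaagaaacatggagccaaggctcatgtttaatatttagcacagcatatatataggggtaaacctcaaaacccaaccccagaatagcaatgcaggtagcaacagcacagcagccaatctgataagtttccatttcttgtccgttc
Clca3b: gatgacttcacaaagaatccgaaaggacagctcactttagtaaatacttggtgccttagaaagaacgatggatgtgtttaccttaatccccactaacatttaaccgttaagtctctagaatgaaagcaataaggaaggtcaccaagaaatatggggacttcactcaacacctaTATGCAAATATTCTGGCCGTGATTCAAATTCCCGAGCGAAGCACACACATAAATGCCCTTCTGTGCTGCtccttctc
Clca3a2, aligned stretch: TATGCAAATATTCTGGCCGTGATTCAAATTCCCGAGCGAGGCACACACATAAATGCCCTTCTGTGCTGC

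Clca3b and Clca3a2 matched at 68 of 69 aligned bases, a stretch that ends where the Clca3a2 window ends. Clca3a1 and Clca3b shared no run longer than 7 bases in these windows, whereas their coding sequences are alike along most of their length. The windows follow the annotated starts and lie at unlike distances from the start codons. The start codon begins at chr3:144760722 in Clca3a1, and the nearest window base is chr3:144760978. In Clca3b these are chr3:144849285 and chr3:144849303. The bases just before the Clca3a1 start codon were thus outside the comparison of windows. Over the coding transcripts the longest run shared by Clca3a1 and Clca3b was 93 bases, of which 92 are coding. It thus breaks off just before the start codons, and likeness further upstream of them was not measured separately. On both strands, the AP-1 pattern TGANTCA occurred once in Clca3b, from position -58, and once in Clca3a2, from position -50, with -1 the base before the start, and 6.75 percent of the 32851 windows of this length hold it. The octamer ATGCAAAT occurred once in Clca3b and once in Clca3a2, against 1.6 percent of all windows, and was searched for after the sequences had been read. It does not overlap the TGANTCA match. Clca3a1 held neither. None of the 3 windows held TATAAA (12.4 percent of all windows), the antioxidant response core TGACNNNGC (10.2 percent), the metal response cores TGCGCNC (12.5 percent) and TGCACNC (10.4 percent), or the heat shock pattern GAANNTTC (6.69 percent). A match describes letters only and is not a site, and a missing match says only that those letters are not in the window.

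Clca3a1 stood at 2.25, 2.26 and 2.42 RPKM in the P-Por-Os+US libraries, at 3.44, 3.02 and 3.43 RPKM in the P-Por-Os libraries and at 0.844, 1.10 and 1.23 RPKM in the control libraries, in the order of the replicate numbers. RPKM divide the reads of a gene by its length and by the size of the library, so that levels of genes of different length can be compared. The 3 groups did not overlap: every P-Por-Os library was above every P-Por-Os+US library, and each of these was above every control library. The means were 2.31 ± 0.0981 RPKM in P-Por-Os+US, 3.30 ± 0.238 RPKM in P-Por-Os and 1.06 ± 0.198 RPKM in control (SD, n = 3 each). Library totals worked out from the steps of the RPKM values lay between 34742000 and 37666000 reads. Behind the values of Clca3a1 stand 306 to 328 reads per library in P-Por-Os+US, 423 to 491 in P-Por-Os and 124 to 169 in control.

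Clca3b was the more abundant of the pair. It stood at 26.4, 28.7 and 33.6 RPKM in the P-Por-Os+US libraries, at 38.3, 40.05 and 40.2 RPKM in the P-Por-Os libraries and at 10.7, 13.6 and 15.1 RPKM in the control libraries. The groups took the same order as for Clca3a1, again with no overlap. The means were 29.6 ± 3.64 RPKM in P-Por-Os+US, 39.5 ± 1.05 RPKM in P-Por-Os and 13.1 ± 2.26 RPKM in control (SD, n = 3 each). The reads per library numbered 3106 to 3919 in P-Por-Os+US, 4712 to 4857 in P-Por-Os and 1352 to 1786 in control.

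**Figure D2:**
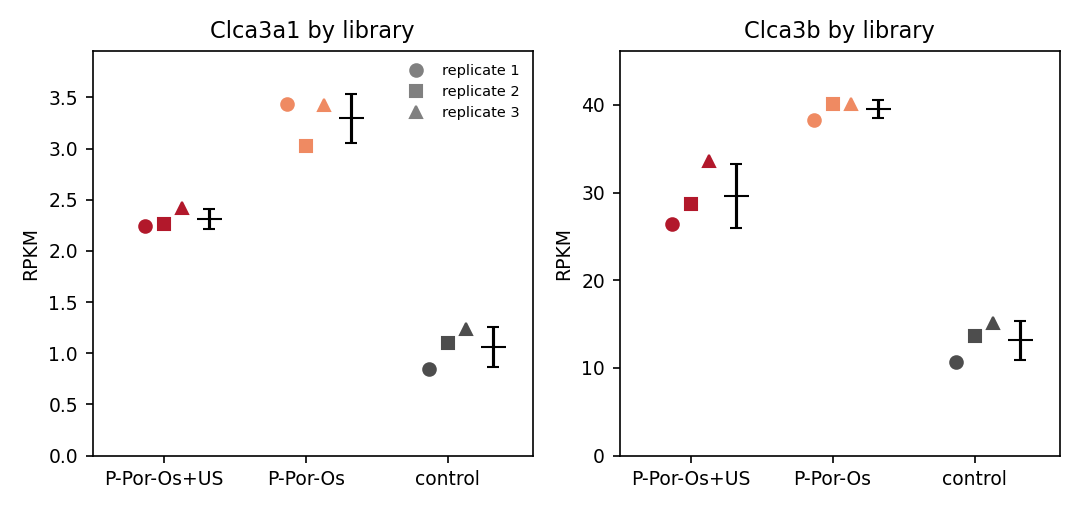
RPKM of Clca3a1 and Clca3b in each of the 9 libraries, grouped by treatment on the horizontal axis, with the replicate number as the symbol. The horizontal mark and bar give the mean and SD of 3 libraries, and for both genes the P-Por-Os libraries are highest, at 3.02 to 3.44 RPKM for Clca3a1 and 38.3 to 40.2 RPKM for Clca3b.

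The rise over control is what selected the pair, so its size is a description and carries no test. With ultrasound, the ratio of mean RPKM to control was 2.18 for Clca3a1 and 2.25 for Clca3b. Without ultrasound, the ratio of mean RPKM to control was 3.11 for Clca3a1 and 3.01 for Clca3b. Both contrasts use the same 3 control libraries, so their likeness is not independent. In bulk RNA, more transcript per cell and more cells that carry the transcript cannot be told apart.

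With ultrasound, the authors' deposited table against control gives a log2 fold of 1.07 for Clca3a1, with an edgeR p of 5.04e-07, and 1.11 for Clca3b, with an edgeR p of 3.69e-09. Without ultrasound, the authors' deposited table against control gives a log2 fold of 1.52 for Clca3a1, with an edgeR p of 2.1e-10, and 1.47 for Clca3b, with an edgeR p of 5.23e-14. No listed gene had a log2 fold below 1 or a p above 0.05, and the listed genes were 0.403 percent of the 15142 genes tested for P-Por-Os+US and 1.05 percent of the 15270 tested for P-Por-Os. The numbers tested were inferred from the ratio of p to adjusted p. By that p, Clca3b had rank 60 of 15142 after P-Por-Os+US and rank 6 of 15270 after P-Por-Os, and Clca3a1 had a rank of at most 416 after P-Por-Os+US and at most 155 after P-Por-Os. By fold they were ordinary members of the tables. In the authors' deposited tables Clca3a1 had rank 39 and Clca3b rank 41 by fold of the 160 genes listed for P-Por-Os, and ranks 42 and 37 of the 61 listed for P-Por-Os+US. Clca3a1 and Clca3b with ultrasound, at 1.07 and 1.11, lay just inside the minimum log2 fold of 1.

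Control replicate 1 was the lowest control library for both genes, at 0.844 RPKM for Clca3a1 and 10.7 RPKM for Clca3b. It was also the lowest for 133 of the 200 genes listed against control, or 66.5 percent. Its median deviation from the control mean was -0.206 on the log2 scale over those 200 genes, against 0.0547 for control replicate 2 and 0.21 for control replicate 3. Without control replicate 1, the log2 ratio of mean RPKM to control was 0.99 for Clca3a1 and 1.04 for Clca3b in P-Por-Os+US, and 1.5 for Clca3a1 and 1.46 for Clca3b in P-Por-Os. Clca3a1 with ultrasound then falls below a log2 ratio of 1. The rise was present without that library, and the part of the library in its size was not tested further.

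Spread between libraries differed by gene and group. For Clca3b the coefficient of variation (SD over mean) was 12.3 percent in P-Por-Os+US, 2.65 percent in P-Por-Os and 17.2 percent in control, where counting error alone gives 1.69 percent in P-Por-Os+US, 1.44 percent in P-Por-Os and 2.5 percent in control. For Clca3a1 it was 4.24 percent in P-Por-Os+US, 7.21 percent in P-Por-Os and 18.6 percent in control, where counting error alone gives 5.63 percent in P-Por-Os+US, 4.64 percent in P-Por-Os and 8.18 percent in control. The spread was larger than counting error for Clca3b in all 3 groups and for Clca3a1 in P-Por-Os and control, and smaller for Clca3a1 in P-Por-Os+US. Separate libraries are bound to differ by more than counting error where a gene has many reads, so these values describe precision only.

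Ultrasound with the material was then set against the material alone, a contrast that the listing of the pair did not use, although the pair was named with its result known. Both genes were lower with ultrasound. Mean RPKM in P-Por-Os+US was 0.70 times that in P-Por-Os for Clca3a1 and 0.749 times for Clca3b. In both genes the highest P-Por-Os+US library lay below the lowest P-Por-Os library. Heatr1, Hmgn2 and Cd14 were separated in the same way. Most of the other genes with values in all 9 libraries, such as Mt2, were separated the other way. A lack of overlap was thus not particular to the pair. For Clca3a1 the difference was -0.38 ± 0.09 (SE) on the log2(RPKM + 1) scale, with a 95 percent interval from -0.57 to -0.18 and a limma adjusted p of 0.0022. For Clca3b the difference was -0.41 ± 0.16 (SE) on the same scale, with an interval from -0.74 to -0.082 and a limma adjusted p of 0.035. An exact two-sided permutation test of 3 libraries against 3 gave p = 0.1 for each gene, the smallest it can give.

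The limma fit used the 28 genes that have values in all 9 libraries, and 10 of these had been listed as higher in this very comparison, so its adjusted p-values are not those of a fit across all genes and are to be read as too small. The authors' deposited table of this contrast lists 27 genes, 0.179 percent of the 15074 tested, all of them higher with ultrasound, so no lower gene could appear there. The limma fit called 2 of the 28 genes lower, which is 7.14 percent, and these were Clca3a1 and Clca3b; 13 were higher, which is 46.4 percent. The median difference was 0.11 over the 28 genes and -0.01 over the 21 that are listed against control in both tables, on the log2(RPKM + 1) scale. On that scale the pair had the most negative values of the 28. Next came Heatr1 at -0.19 (limma adjusted p = 0.18), Hmgn2 at -0.19 (limma adjusted p = 0.25) and the endotoxin co-receptor Cd14 at -0.18 (limma adjusted p = 0.105). That place depends on the pseudocount of 1, which shrinks differences of genes with low levels. By the ratio of mean RPKM, Kif5a, a kinesin heavy chain of neurons that was chosen here after its values were seen, was lower still with ultrasound, at 0.647 times its level without it. Kif5a stood at 0.0981 to 0.324 RPKM in P-Por-Os+US and 0.242 to 0.364 RPKM in P-Por-Os, so its groups overlapped, and with a pseudocount of 0.1 its difference was -0.50 with a limma adjusted p of 0.13. That the pair differed from these genes was not tested.

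**Figure D3:**
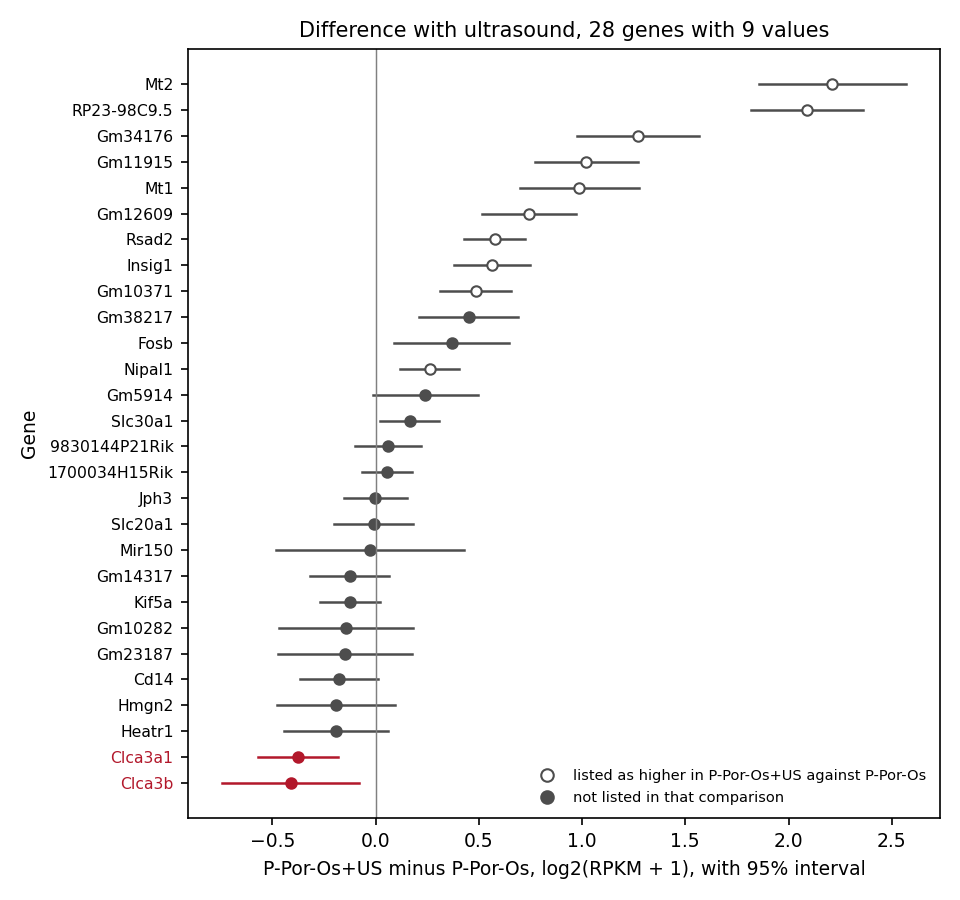
Fitted difference of P-Por-Os+US minus P-Por-Os on the log2(RPKM + 1) scale, with its 95 percent interval, for the 28 genes with values in all 9 libraries. Open symbols are genes listed as higher in that comparison, and Clca3a1 and Clca3b, in red, have the most negative values on this scale at -0.38 and -0.41; with a pseudocount of 0.1, Kif5a was more negative at -0.50.

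With each of the 9 libraries left out in turn, Clca3b kept a limma adjusted p under 0.05 in 4 of 9 fits. Its limma adjusted p was 0.19 without P-Por-Os+US replicate 1, 0.078 without P-Por-Os+US replicate 2, 0.072 without P-Por-Os replicate 1, 0.12 without P-Por-Os replicate 2 and 0.11 without P-Por-Os replicate 3, while the difference stayed between -0.50 and -0.34 over all 9 fits. For Clca3a1 the limma adjusted p ranged from 0.0011 to 0.0113 in these fits.

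The pair kept nearly one proportion. The ratio of Clca3b to Clca3a1 in RPKM was 11.8, 12.7 and 13.9 in the P-Por-Os+US libraries, 11.1, 13.3 and 11.7 in the P-Por-Os libraries, and 12.6, 12.4 and 12.3 in the control libraries. The mean ratio was 12.8 ± 1.04 in P-Por-Os+US, 12.03 ± 1.10 in P-Por-Os and 12.4 ± 0.198 in control (SD, n = 3 each), and the groups overlapped. By these RPKM values Clca3b stood about 12 times above Clca3a1 per length while the levels of both changed with treatment. The split of reads between Clca3a1 and Clca3a2 is uncertain, so the size of this ratio is too.

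**Figure D4:**
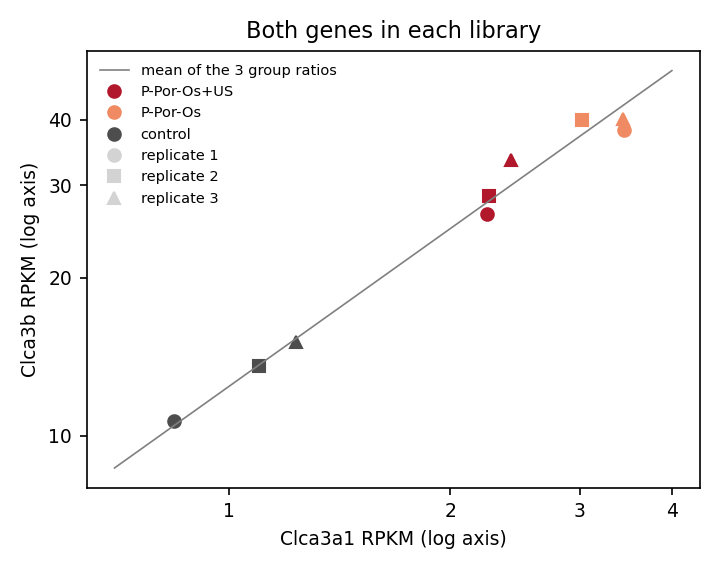
Clca3b against Clca3a1 in RPKM in each of the 9 libraries, on log axes, with the group as the colour and the replicate number as the symbol. The grey line marks one constant ratio, the mean of the 3 group ratios, and the libraries follow it from control at the lower left to P-Por-Os at the upper right, with ratios from 11.1 to 13.9.

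Over the 9 libraries the pair had a Pearson r of 0.987 with each other on the log2(RPKM + 1) scale. The 3 genes most like Clca3a1 were Clca3b, Heatr1 (r = 0.972) and Hmgn2 (r = 0.968), and those most like Clca3b were Heatr1 (r = 0.991), Hmgn2 (r = 0.990) and Clca3a1. Heatr1 is a factor of ribosome biogenesis, and Hmgn2 is a protein that binds nucleosomes and has retrotransposed copies among which reads may be split. The libraries share their group means, and the 27 other genes were themselves chosen for being higher in at least 1 of 3 comparisons, with a median r of 0.816 to Clca3a1 and 0.850 to Clca3b. After the group means were subtracted, r was 0.788 between the pair. Most of the 27 other genes also had a positive r of such deviations to each of the pair. Cd14, which took the same order of groups, had -0.724 to Clca3a1 and -0.428 to Clca3b. The r of such deviations to Clca3b was 0.902 for Heatr1 and 0.926 for Hmgn2, and to Clca3a1 it was 0.722 for Heatr1 and 0.757 for Hmgn2. Other genes were closer by that measure, with Mir150 at 0.975 and Gm10282 at 0.946 to Clca3b, and Mt1 at 0.914 and Gm10282 at 0.853 to Clca3a1, so the order of likeness depends on the measure.

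Heatr1 stood at 7.81 ± 0.435 RPKM in P-Por-Os+US, 9.06 ± 0.267 RPKM in P-Por-Os and 3.67 ± 0.643 RPKM in control (SD, n = 3 each). Hmgn2 stood at 14.6 ± 1.58 RPKM in P-Por-Os+US, 16.8 ± 0.292 RPKM in P-Por-Os and 6.43 ± 1.08 RPKM in control (SD, n = 3 each). As for the pair, P-Por-Os was the highest group, the groups did not overlap, and control replicate 1 was the lowest library of all.

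**Figure D5:**
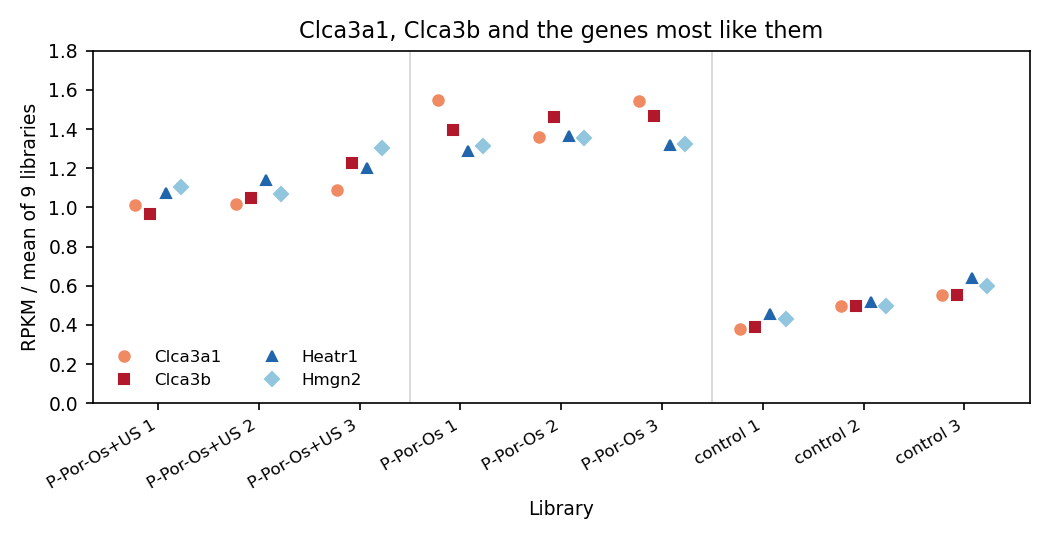
RPKM of Clca3a1, Clca3b, Heatr1 and Hmgn2 in each of the 9 libraries, divided by the mean of each gene over the 9 libraries, with grey lines between the groups. All 4 genes are highest in the P-Por-Os libraries and lowest in control replicate 1, and Hmgn2 in P-Por-Os+US replicate 3 comes closest to its P-Por-Os values.

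Of the 8 Clca genes, 2 were listed against control with ultrasound and 2 without it, the same pair each time, and 0 were listed as higher with ultrasound than without it. Over all genes tested, the listed share was 0.403 percent for P-Por-Os+US against control, 1.05 percent for P-Por-Os against control and 0.179 percent for the contrast between them, and the pair was itself selected for being listed, so nothing about the family is read from its count. The other 6, which include Clca1, Clca2 and Clca3a2, were not in the tables, so their levels are not known here. Of 27 annotated genes within 500 kb of the pair, 12 are protein-coding, and 10 of those 12 were not listed; the 2 that were listed are the selected pair. The third listed gene there was Gm43240, an antisense model inside Clca3a2, which has values for P-Por-Os and control only. It stood at 1.86, 1.99 and 2.25 RPKM in the P-Por-Os libraries and at 0.801, 0.658 and 0.993 RPKM in the control libraries, with no overlap. These values rest on 43 to 51 reads per P-Por-Os library and 15 to 22 reads per control library, and the authors' deposited table gives a log2 fold of 1.19 with an edgeR p of 0.000697. Of its 630 exonic bases, 241 overlap exons of Clca3a2 on the other strand, which is 38.3 percent. The libraries were made with stranded kits, but whether the counting used strand is not given in the sources used here, and without strand the reads of both genes cannot be told apart in that overlap. The same holds for Clca3a1 and the antisense model Gm34866, which was not listed and overlaps 170 exonic bases of Clca3a1, or 4.36 percent.

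None of the 47 chloride channels and transporters of a list that includes Ano1, Cftr and the Lrrc8 subunits of the volume-regulated channel was in any table. Nor was any of 8 adhesion partners, integrins and their ligands. Of all genes tested, 0.403 percent were listed against control with ultrasound and 1.05 percent without it. A share of 0.179 percent was listed as higher with ultrasound than without it. At shares this low, counts of 0 in lists of this length cannot tell whether these genes responded. Of 23 genes of the mucin and goblet cell programme, 1 was listed, for P-Por-Os against control. This was Tff3, a small secreted peptide that goblet cells release with mucins, at 96.9 ± 2.16 RPKM after P-Por-Os against 37.5 ± 8.13 RPKM in control (SD, n = 3 each), with a log2 fold of 1.26 in the authors' deposited table. The share of listed genes over all genes tested in that comparison was 1.05 percent.

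Cell type markers were available only where listed. Of the 10 hepatocyte and hepatoma markers none was in a table, so the labelled cell type was not checked. Of the markers of other cells, 2 of 8 of keratinocytes (Krt16 and Ivl), 1 of 6 of goblet cells (Tff3) and 1 of 6 of myeloid cells (Cd14) were listed for P-Por-Os against control, and 0 of 7 of endothelium and 0 of 8 of smooth muscle and fibroblasts, beside 1.05 percent of all genes tested. With ultrasound, Cd14 was the 1 marker listed against control, beside 0.403 percent of all genes tested. Counts of 1 or 2 markers in lists this short are given as values only. The other markers had no values here, so summed levels were not computed and their part in the rise of Clca3a1 and Clca3b was not tested.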

How the data were processed

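RNA-seq reads were paired and libraries stranded, per the labels' protocols. GRCm38, edgeR 3.12.1, Subread 1.5.1 (featureCounts) and fastp 0.23.4 are named in the submitters' processing notes. Which aligner, annotation and strand setting were used is not given in the sources used here. The authors deposited RPKM values per library for 3 tables of 6 libraries each. Per the file headers, the authors' log2 fold changes, log2 CPM, F score, p-values and adjusted p-values stand beside them. Every listed log2 fold was at least 1 and every p under 0.05, so genes that fell or rose less have no values here. The number of genes the authors tested was taken as the one that turned the largest share of p over adjusted p into whole ranks.

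Depth was read from whole-read steps: RPKM times exonic length in GENCODE M21 gave whole reads (within 0.05) for 84.7 to 90.1 percent of values under 400 reads, at library totals between 34742000 and 37666000. The reads give depth only, and counting error from them ignores duplicates; no count test was run on RPKM. The difference with ultrasound was fitted with limma 3.58.1 in R 4.3.3 on log2(RPKM + 1), with no filter and a variance trend. Benjamini-Hochberg adjustment was over the 28 genes with values in all 9 libraries. The fit was also run on simulated data with more genes, larger changes than those of the pair and equal numbers up and down. That run does not check the fit on a small set selected for being higher. The pseudocount understates folds of low genes. Sequences were compared with Biopython 1.88, and promoters are from RefSeq. Genes were named by a rule, which took the pair and the listed genes of the gene lists or within 500 kb. It also took the 3 genes most correlated with each of the pair and the 5 most negative differences. Kif5a, Mir150, Gm10282, Mt1 and Mt2 were added after their values were seen. The genes and lists were chosen with earlier results of these data known. Alternatives were another pseudocount, a minimum mean of 1 RPKM, a replicate block, fewer libraries and rescaling.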

Additional observations from a re-analysis of the deposited data

How the results depend on the processing

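Of 93 alternative values, 77 were labelled unchanged, 7 lost an adjusted p under 0.05, 9 moved further, and 0 changed sign. Unchanged meant the same side of the threshold for a test and less than the spread between replicates for a ratio. For the count of lower genes it meant a fixed ratio to the main count, and a change from 2 to 3 passed. The 7 losses were all of Clca3b. In those same settings the count fell from 2 to 1, and these falls make up most of the 9, so 1 event enters both numbers. The difference of Clca3b with ultrasound against without it was -0.42 with a limma adjusted p of 0.052 at a pseudocount of 0.1, and -0.38 with 0.053 when libraries were rescaled to their median. The count of genes lower with ultrasound was then 1 in place of 2, and 1 to 3 with a library left out; the cause was not tested. Leaving out a library gave differences from -0.42 to -0.35 for Clca3a1 and from -0.50 to -0.34 for Clca3b. Among genes listed against control in both tables, an alternative added after the data were seen, the limma adjusted p was 0.0025 for Clca3a1 and 0.046 for Clca3b. On the log2(RPKM + 1) scale the difference of Clca3a1 from control was 0.69 in P-Por-Os+US and 1.06 in P-Por-Os, against log2 ratios of mean RPKM of 1.12 in P-Por-Os+US and 1.64 in P-Por-Os, since the pseudocount lowers it by construction. Leaving out a library gave log2 ratios to control in P-Por-Os+US from 0.99 to 1.25 for Clca3a1 and from 1.04 to 1.28 for Clca3b, and in P-Por-Os from 1.5 to 1.76 for Clca3a1 and from 1.46 to 1.70 for Clca3b. The ratio of Clca3b to Clca3a1 then ranged from 12.2 to 13.3 in P-Por-Os+US, from 11.4 to 12.5 in P-Por-Os and from 12.3 to 12.5 in control.

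Replicate numbers are shared by the groups, but the deviations of same-numbered libraries correlated at -0.07 to 0.52, and for 4 of 9 libraries the best match had their own number, so they were not taken as pairs. With a replicate block the differences were -0.38 for Clca3a1 and -0.41 for Clca3b, with limma adjusted p-values of 0.0016 and 0.014, and 2 genes were lower. Depth limits Gm43240 most, at 15 to 51 reads per library.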
